A study of Arabidopsis thaliana with 8 samples.

Results

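The genes described here are BCAT4, MAM1, CYP79F1/F2, CYP83A1 and MYB28, 5 genes of aliphatic glucosinolate synthesis, each read by 1 probe set out of 22746 tested. The rule lists them by name: BCAT4 (AT3G19710, probe set 257021_at), MAM1 (AT5G23010, 249866_at), CYP79F1/F2 (AT1G16410, 262717_s_at), CYP83A1 (AT4G13770, 254687_at) and MYB28 (AT5G61420, 247549_at). All 5 were found and tested. The platform table used here names BCAT4; it has no entry for the other 4 probe sets, whose genes rest on the list of members itself. CYP79F1 and its neighbour CYP79F2 share 1 probe set, so their transcripts cannot be told apart.

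Glucosinolates are sulfur-rich defence compounds of Arabidopsis and its relatives, which myrosinases split into toxic products when tissue is damaged. The aliphatic kind starts from methionine: its side chain is lengthened in a cycle of reactions, a core pathway turns the product into the glucosinolate, and the side chain is then modified. MYB28 is the transcription factor best known for switching these genes on in leaves. BCAT4 and MAM1 act in chain elongation, and CYP79F1, CYP79F2 and CYP83A1 in the core pathway.

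The study hybridised 8 Affymetrix arrays from 4 groups of plants, with 2 arrays a group. All plants were wild-type Arabidopsis thaliana of strain Columbia-0, and the tissue was whole, fully grown leaf. The plants were 4 weeks old when clothianidin, imidacloprid or salicylic acid was given at 4 mM, and leaves were taken 4 days later, as were those of the untreated group. The first 2 agents are neonicotinoids, insecticides that act on insect nicotinic receptors, and the third is a hormone of plant defence. The question was how leaves respond to the insecticides. The 2 replicates of a group came from independent experiments. The labels describe the controls as untreated and name no solvent control. Values are log2 RMA summaries, in which a step of 1 is a doubling of signal; they are levels of a probe set and are not compared between genes.

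The leaf identity of the samples was visible in Rubisco activase, RCA, at 13.22 to 14.37 on all arrays, while the root hair gene EXPA7 lay at 1.96 to 2.01, below the 25th percentile of an average array (2.49). Of the listed markers, 3 of 8 mesophyll, 2 of 4 guard cell, 1 of 3 trichome and 1 of 4 root genes were measured, and 0 of 5 vascular and 0 of 4 seed and flower genes. The salicylic acid replicates correlated at r = 0.919 across probe sets and those of the other groups at 0.955 to 0.969, a figure over genes, which are not independent replicates. The actin 3′ minus 5′ signal difference, which grows as RNA degrades, was 0.87 and 1.11 on the imidacloprid arrays and between 0.74 and 2.17 on the others. Precision is limited by having 2 arrays a group.

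All 5 genes were lower on both imidacloprid arrays than on any of the other 6 arrays. Across all probe sets, 10.8% had both imidacloprid arrays below the others. In each gene the second imidacloprid array lay far under the first, by 2.42 to 3.68 on the log2 scale. Since leaves were measured in bulk, fewer cells that express a gene and less RNA in each of them cannot be told apart.

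MYB28, the regulator, lay at 9.40 and 8.51 in untreated leaves (replicates 1 and 2), 7.65 and 8.70 after clothianidin, 5.76 and 3.33 after imidacloprid, and 8.93 and 7.06 after salicylic acid. The imidacloprid arrays stood below all others, and the other 3 groups overlapped. Group means were 8.96 ± 0.63, 8.18 ± 0.74, 4.55 ± 1.71 and 7.997 ± 1.32 in the same order (SD, n = 2).

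BCAT4, the aminotransferase that takes the amino group off methionine at the start of chain elongation, lay at 11.04 and 11.41 in untreated leaves, 11.31 and 10.62 after clothianidin, 9.72 and 6.04 after imidacloprid, and 12.43 and 10.49 after salicylic acid. The first salicylic acid array was the highest of the 8 and the second the lowest outside imidacloprid. Means were 11.22 ± 0.26, 10.96 ± 0.49, 7.88 ± 2.60 and 11.46 ± 1.37 (SD, n = 2).

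MAM1, the methylthioalkylmalate synthase that condenses the resulting oxo acid with acetyl-CoA, lay at 11.98 and 12.10 untreated, 12.25 and 11.78 after clothianidin, 10.67 and 7.36 after imidacloprid, and 12.94 and 11.73 after salicylic acid. Its arrays took the same places as those of BCAT4 at both ends: salicylic acid replicate 1 was highest and imidacloprid replicate 2 lowest. Means were 12.04 ± 0.08, 12.01 ± 0.34, 9.02 ± 2.34 and 12.33 ± 0.85 (SD, n = 2).

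CYP79F1/F2, the cytochromes P450 that oxidise chain-elongated methionine to aldoximes, lay at 7.44 and 8.25 untreated, 7.08 and 6.73 after clothianidin, 6.37 and 3.44 after imidacloprid, and 8.89 and 6.44 after salicylic acid. Here imidacloprid replicate 1 was close under salicylic acid replicate 2, so the imidacloprid arrays were only narrowly apart from the rest. Means were 7.84 ± 0.58, 6.90 ± 0.24, 4.91 ± 2.08 and 7.67 ± 1.73 (SD, n = 2).

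CYP83A1, the cytochrome P450 that oxidises these aldoximes further, lay at 11.62 and 11.47 untreated, 11.07 and 11.20 after clothianidin, 9.52 and 6.14 after imidacloprid, and 12.28 and 10.51 after salicylic acid. The untreated and clothianidin pairs were tight, and the untreated pair lay above the clothianidin pair without overlap. Means were 11.55 ± 0.11, 11.14 ± 0.09, 7.83 ± 2.39 and 11.39 ± 1.25 (SD, n = 2).

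**Figure D1:**
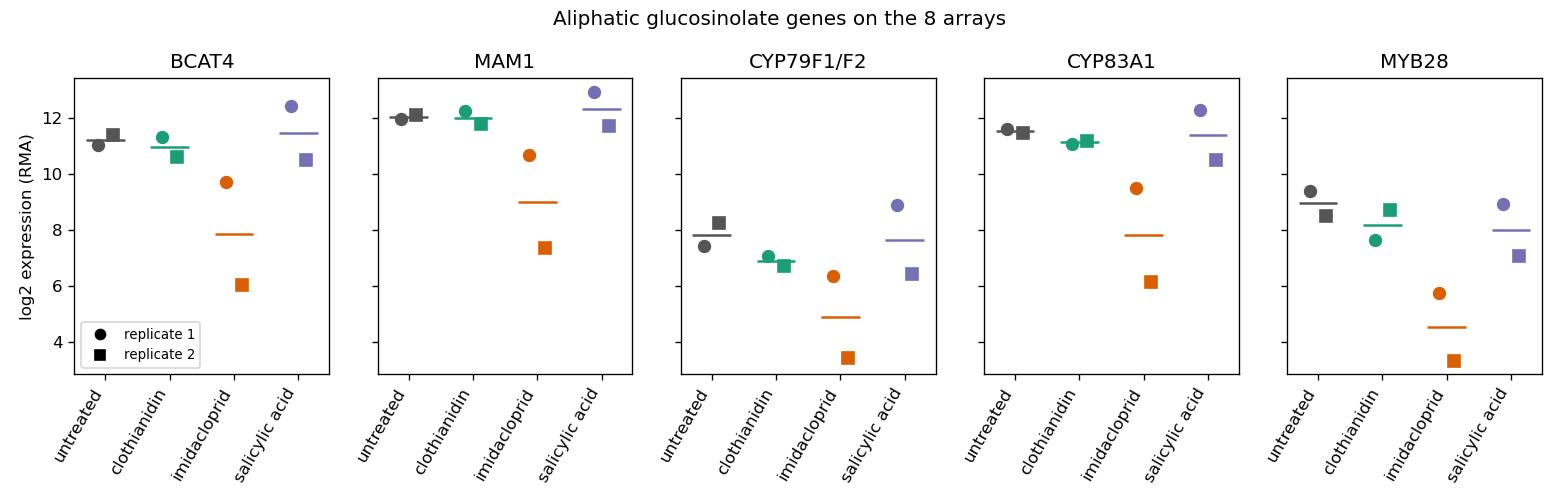
Log2 expression of the 5 genes by group, with replicate 1 as a circle, replicate 2 as a square and the group mean as a line. In every gene the imidacloprid arrays are the lowest of the 8, with replicate 2 at 3.33 to 7.36 and replicate 1 at 5.76 to 10.67.

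The order of the group means ended with imidacloprid in all 5 genes, and the step down to it was the only one in that order without overlap. Salicylic acid had the highest mean for BCAT4 and MAM1, and untreated leaves for CYP79F1/F2, CYP83A1 and MYB28. The steps between neighbouring means above imidacloprid were 0.02 to 0.78 on the log2 scale, with overlapping arrays. The step down to imidacloprid was 1.998 for CYP79F1/F2, 2.997 for MAM1, 3.09 for BCAT4, 3.31 for CYP83A1 and 3.45 for MYB28.

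Compared with untreated leaves, none of the 5 passed limma's test after imidacloprid at an adjusted p under 0.05, a call made for 0.312% of all probe sets. At an unadjusted p under 0.05, 3 of the 5 were lower (MYB28, CYP83A1 and MAM1), against 10.6% of all probe sets. The arrays of the 2 groups did not overlap, with imidacloprid lower, for 5 of 5, against 23.8% of all probe sets.

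The log2 difference was -4.41 for MYB28 (SE 1.09, 95% confidence interval -7.25 to -1.57; limma adjusted p = 0.136), or 21.2-fold. For CYP83A1 it was -3.72 (SE 1.24, -6.95 to -0.48; limma adjusted p = 0.212), for BCAT4 -3.34 (SE 1.37, -6.92 to 0.23; adjusted p = 0.284) and for MAM1 -3.02 (SE 1.15, -6.03 to -0.01; adjusted p = 0.257). CYP79F1/F2 differed by -2.94 (SE 1.27, -6.26 to 0.38; limma adjusted p = 0.304). Of all probe sets, 0.273% had a difference as low as that of MYB28, and 1.72% as low as that of CYP79F1/F2. The median of the 5 was -3.34, and that of all probe sets 0.02. For groups of 2, the smallest two-sided p of an exact permutation test is 0.333, so the tests rest on the spread pooled over the 4 groups.

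**Figure D2:**
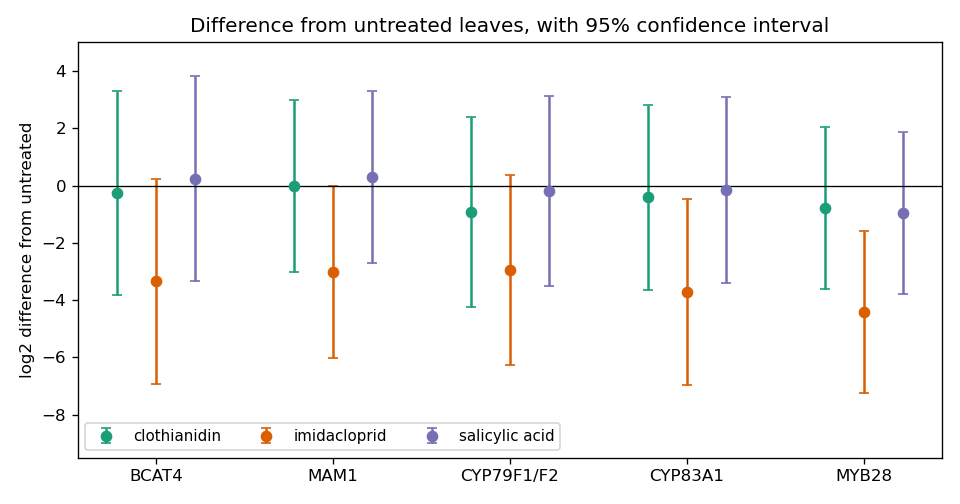
Log2 difference from untreated leaves for each gene after each treatment, with the 95% confidence interval of limma's fit as bars. The imidacloprid points lie between -4.41 and -2.94, and the clothianidin and salicylic acid points between -0.96 and 0.29.

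**Figure D3:**
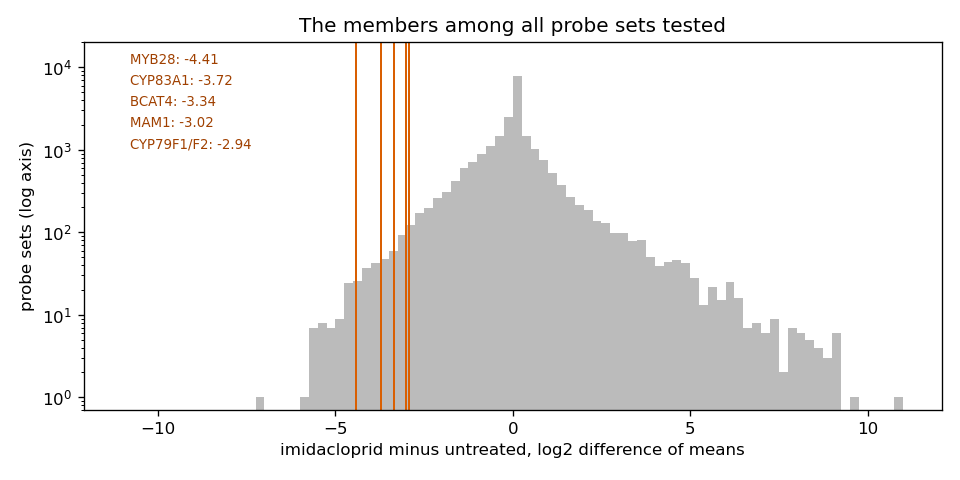
Histogram of the imidacloprid minus untreated log2 difference over 22746 probe sets, with a log axis for their number. Vertical lines mark the 5 genes, all in the low tail, from MYB28 at -4.41 to CYP79F1/F2 at -2.94.

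The size of the difference depended on the imidacloprid array. Between the replicate 1 arrays, imidacloprid minus untreated was -3.64 for MYB28, -2.10 for CYP83A1, -1.32 for BCAT4, -1.31 for MAM1 and -1.06 for CYP79F1/F2. Between the replicate 2 arrays it was -5.18, -5.33, -5.37, -4.73 and -4.81 in the same order. All 10 differences were below 0, which follows from the lack of overlap between the groups and adds nothing to it. MYB28 was the lowest on replicate 1 and BCAT4 on replicate 2. A pairing of arrays by replicate number was not established. Of all probe sets, 15.5% were as low as CYP79F1/F2 between the replicate 1 arrays and 0.286% between the replicate 2 arrays. For fits with an array left out, here and further on, the share of all probe sets at an unadjusted p was not computed. Counts from those fits show only that the calls depend on the array. Without imidacloprid replicate 2 the median over the 5 was -1.50, and without replicate 1 it was -5.18. The number at an unadjusted p under 0.05 was then 1 and 5, against 3 with all arrays. It was 0 without untreated replicate 1, and 1 without untreated replicate 2 or either clothianidin array.

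The gap between the imidacloprid arrays was itself unusual for these genes. Replicate 1 exceeded replicate 2 by 3.68 for BCAT4, 3.39 for CYP83A1, 3.31 for MAM1, 2.94 for CYP79F1/F2 and 2.42 for MYB28. A gap over 1 in this direction was found in 4.89% of all probe sets, and a gap as high as that of MYB28 in 0.857%. The salicylic acid arrays differed in the same direction, by 1.21 for MAM1 to 2.45 for CYP79F1/F2. In untreated and clothianidin leaves the gaps ran from -1.05 to 0.89, and MYB28 held both ends of that range.

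Leaf cell markers had negative imidacloprid minus untreated differences for 3 of 3 mesophyll and 2 of 2 guard cell genes, against 40.02% of all probe sets. The sign of so few genes says little. In limma's test 0 were at an adjusted p under 0.05, against 0.312% of all probe sets, and FAMA was at an unadjusted p of 0.0330. At an unadjusted p under 0.05, 10.6% of all probe sets were lower. The mean log2 level of the 3 measured mesophyll markers, RCA, SBPASE and PORB, was 13.18 and 12.25 in untreated leaves, 12.70 and 12.20 after clothianidin, 11.38 and 10.82 after imidacloprid, and 13.004 and 10.86 after salicylic acid. Both imidacloprid arrays were thus below both untreated arrays in this level. Of single probe sets, 23.8% were lower in that way. Over the 8 arrays RCA, SBPASE and PORB correlated with the mean of the 5 genes, each centred and divided by its SD, at r = 0.54, 0.77 and 0.81. Between imidacloprid and salicylic acid the marker level differed by -0.05 on replicate 2, and the 5 glucosinolate genes by -4.45 to -3.004. On replicate 1 the markers differed by -1.62 and the 5 genes by -3.17 to -2.26. The mean of the 2 guard cell genes, FAMA and GC1, was 5.85 and 4.29 untreated, 5.30 and 3.84 after clothianidin, 3.79 and 3.35 after imidacloprid, and 5.84 and 3.16 after salicylic acid. The trichome gene TRY was at 4.01 and 3.66 untreated and 3.39 and 4.94 with imidacloprid. The part of these cell types in the result was not tested.

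After clothianidin the 5 genes lay within 1 log2 unit of untreated leaves on average. None passed limma's test, at an adjusted p or an unadjusted p under 0.05, where 0% of all probe sets passed the first and 1.53% were lower and 1.11% higher at the second. Differences from untreated leaves were -0.94 for CYP79F1/F2 (95% confidence interval -4.26 to 2.38), -0.78 for MYB28 (-3.61 to 2.06), -0.41 for CYP83A1 (-3.64 to 2.82), -0.26 for BCAT4 (-3.83 to 3.32) and -0.02 for MAM1 (-3.03 to 2.98). The intervals rest on the spread pooled over the 4 groups and are wide enough to hold a change of several-fold either way. For CYP83A1 the SD was 0.11 untreated and 0.09 after clothianidin, against 2.39 after imidacloprid and 1.25 after salicylic acid. The clothianidin arrays lay below the untreated ones without overlap for 2 of the 5, CYP79F1/F2 and CYP83A1, against 14.9% of all probe sets. MYB28 differed by -1.75 on replicate 1 and by 0.19 on replicate 2, but a pairing of arrays by replicate number was not established. Its clothianidin arrays, at 7.65 and 8.70, lay below and between the untreated ones, at 9.40 and 8.51.

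Salicylic acid arrays lay on both sides of untreated leaves. No gene passed limma's test at an adjusted p under 0.05 (0% of all probe sets) or at an unadjusted one (1.87% lower, 1.51% higher), and for 0 of 5 did the arrays stand apart (34.7% lower, 8.28% higher). The differences were -0.96 for MYB28 (95% confidence interval -3.80 to 1.88), -0.18 for CYP79F1/F2 (-3.50 to 3.14), -0.15 for CYP83A1 (-3.39 to 3.08), 0.24 for BCAT4 (-3.34 to 3.81) and 0.29 for MAM1 (-2.71 to 3.30). On replicate 1 the 4 enzyme genes were higher than untreated, by 0.65 for CYP83A1 to 1.46 for CYP79F1/F2, and MYB28 differed by -0.47. On replicate 2 all 5 were lower, by -0.37 for MAM1 to -1.81 for CYP79F1/F2. The 4 enzyme genes had their highest level of all arrays on salicylic acid replicate 1, whereas MYB28 had it on untreated replicate 1.

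The insecticides were compared at the same dose and time. Their structures differ in the aromatic ring, a chlorothiazole in clothianidin and a chloropyridine in imidacloprid, and in the nitroguanidine-type part, which is closed into an imidazolidine in imidacloprid alone. All 5 genes were higher with clothianidin without overlap, against 20% of all probe sets, and 2 of them, MYB28 and CYP83A1, at an unadjusted p under 0.05, against 6.34%. None passed at an adjusted p, where 0.0967% of all probe sets did. Clothianidin minus imidacloprid was 3.63 for MYB28 (95% confidence interval 0.80 to 6.47; limma adjusted p = 0.297), 3.31 for CYP83A1 (0.07 to 6.54), 3.09 for BCAT4 (-0.49 to 6.66), 2.997 for MAM1 (-0.01 to 6.004) and 1.998 for CYP79F1/F2 (-1.32 to 5.32; limma adjusted p = 0.518). Between replicate 1 arrays these differences were 0.70 to 1.895, and between replicate 2 arrays 3.29 to 5.37. Without imidacloprid replicate 2 the median difference was 1.34 and no gene was at an unadjusted p under 0.05; without replicate 1 it was 4.84 and all 5 were. Leaving out any other array gave a count of 0 or 1 in this comparison.

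Imidacloprid and salicylic acid leaves also differed without overlap for all 5 genes, lower with imidacloprid, against 15.9% of all probe sets. At an unadjusted p under 0.05, 4 of 5 were lower, against 5.5%; CYP79F1/F2 was the exception. No gene passed at an adjusted p, where 0.0835% of all probe sets did. Imidacloprid minus salicylic acid ran from -3.58 for BCAT4 (95% confidence interval -7.16 to -0.01; limma adjusted p = 0.385) to -2.76 for CYP79F1/F2 (-6.08 to 0.56; limma adjusted p = 0.449). The count of 4 was 0 without imidacloprid replicate 2 or salicylic acid replicate 1, and 1 without any single untreated or clothianidin array. Clothianidin minus salicylic acid ran from -0.76 for CYP79F1/F2 to 0.18 for MYB28, with arrays that overlapped in every gene, where 6.05% of all probe sets were lower and 8.32% higher without overlap. None passed limma's test at an adjusted p (0% of all probe sets) or an unadjusted p under 0.05 (0.572% lower, 0.646% higher).

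The 5 genes varied together over the arrays. Among their 10 pairs, Pearson's r over the 8 arrays ran from 0.89 to 0.99 and Spearman's rho from 0.71 to 0.98. All 10 values of r passed an exact two-sided permutation test after Benjamini-Hochberg adjustment over the pairs (adjusted p from 0.000744 to 0.00501), and 8 of the 10 values of rho (adjusted p from 0.00198 to 0.0576). The arrays share treatments, so the p-values of these correlations take in the differences between groups. BCAT4 and MAM1 were the closest pair, with r = 0.99 and rho = 0.98. After each group's mean was subtracted, r ran from 0.81 to 0.99, a description that rests on 1 replicate gap in each of 4 groups, with the widest gaps in imidacloprid and salicylic acid leaves for the 4 enzyme genes and MYB28 alike.

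Over the 6 arrays of the groups without imidacloprid, r ran from 0.81 to 0.98 in the 6 pairs of enzyme genes and from 0.32 to 0.81 in the 4 pairs with MYB28. In an exact permutation test adjusted over the 10 pairs, 3 values of r passed over these 6 arrays: BCAT4 with MAM1, BCAT4 with CYP79F1/F2 (adjusted p = 0.0278 for both) and CYP79F1/F2 with CYP83A1 (adjusted p = 0.0463). No rho passed in that test (adjusted p from 0.0833 to 0.564). These 6 arrays also share treatments, which the permutation does not take into account. All 4 enzyme genes had their highest level on 1 array, salicylic acid replicate 1. Without the 2 arrays farthest from the median of the first gene, r ran from 0.74 to 0.95 in the enzyme pairs and from 0.32 to 0.81 in the pairs with MYB28, lowest for MAM1 with MYB28. The replicate 1 minus replicate 2 difference of MYB28 was 0.89 in untreated and -1.05 in clothianidin leaves. It had the sign of CYP83A1 in both groups (0.16 and -0.12), and the opposite sign to BCAT4, MAM1 and CYP79F1/F2 in both.

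**Figure D4:**
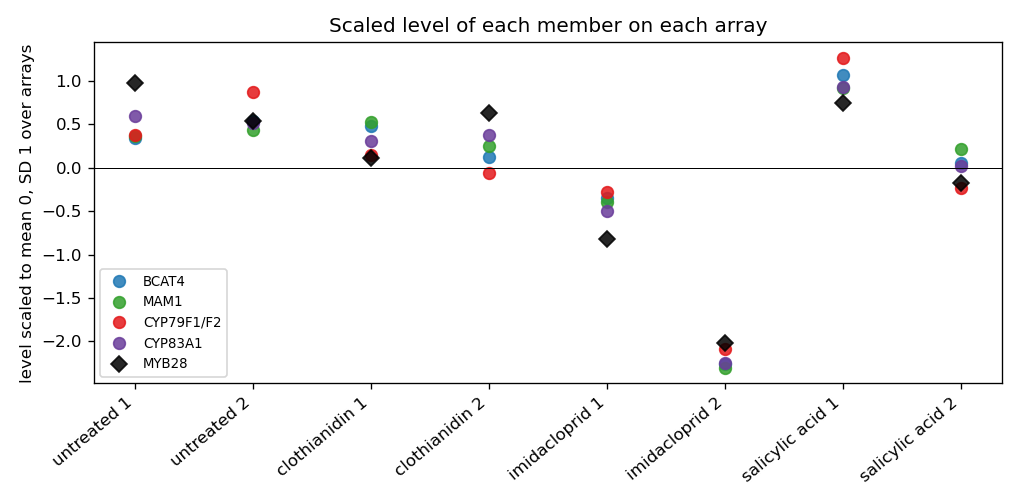
Level of each gene on each array, centred on its mean and divided by its SD over the 8 arrays (no unit), with enzyme genes as circles and MYB28 as a diamond. The mean of the 5 is -2.18 on imidacloprid replicate 2 and -0.47 on replicate 1, and 0.99 on salicylic acid replicate 1.

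Few other genes of the pathway had a probe set named by a single locus: 16 of 93 listed in 8 groups, among them 0 of 8 further chain elongation genes and 0 of 17 indole glucosinolate genes. After imidacloprid none of the 16 passed limma's test at an adjusted p under 0.05, where 0.312% of all probe sets did. At an unadjusted p under 0.05, 5 passed. Of these, 4 were lower, against 10.6% of all probe sets, and 1 was higher, against 8.71%. The 5 are UGT74C1, AOP1, APS3 and BCAT5 on the lower side and GSL-OH on the higher side. Their number was 3 without untreated replicate 1 or either clothianidin array, and 1 without imidacloprid replicate 2.

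In the core pathway, all 3 measured genes of 8 listed had negative differences from untreated leaves after imidacloprid, with a median of -2.14. Of all probe sets, 40.02% had a negative difference, so the sign of 3 genes says little. GSTU20, a glutathione transferase of the pathway, lay at 10.49 and 9.52 untreated and at 7.72 and 4.23 with imidacloprid. Salicylic acid replicate 2, at 7.15, lay between the imidacloprid arrays, and all others lay above them. The log2 difference of GSTU20 was -4.03 (SE 1.84; limma adjusted p = 0.324). UGT74C1 (AT2G31790), a glucosyltransferase of the core pathway, lay at 8.93 and 8.76 untreated, 7.03 and 6.39 with imidacloprid, and differed by -2.14 (SE 0.76; limma adjusted p = 0.231). For UGT74C1 too, salicylic acid replicate 2, at 6.81, lay between the imidacloprid arrays. UGT74B1, the glucosyltransferase that also serves other glucosinolates, lay at 10.17 and 10.58 untreated and 10.21 and 9.999 with imidacloprid, a difference of -0.27 (SE 0.41).

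Among side-chain genes, 3 of 10 were measured, with differences of either sign. AOP1, an oxoglutarate-dependent dioxygenase gene of the AOP cluster, lay at 7.09 and 5.88 untreated and 2.84 and 2.42 with imidacloprid, near the 25th percentile. It differed by -3.86 (SE 0.73; limma adjusted p = 0.0993), a size that is not exact so near background. GSL-OH (AT2G25450), named for the hydroxylation of butenyl glucosinolate, lay at 11.06 and 11.87 untreated and 13.50 and 13.57 with imidacloprid, above all other arrays, as were 25.8% of all probe sets. It differed by 2.07 (SE 0.69; limma adjusted p = 0.213), against the direction of the 5 genes. AOP3 was at 2.71 to 2.78 on all arrays, near background.

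Of the regulators, 3 of 10 were measured. MYC3 and MYC4, basic helix-loop-helix factors of jasmonate signalling that act with MYB28, differed after imidacloprid by -0.06 (SE 0.46) and -1.03 (SE 0.59; limma adjusted p = 0.421). MYC4 lay at 7.51 and 5.85 untreated and at 5.63 and 5.66 with imidacloprid, with the second untreated array close above the imidacloprid pair. SDI2 (AT1G04770), a repressor of glucosinolate synthesis when sulfur is short, lay at 5.49 and 6.80 untreated, 7.38 and 8.15 after imidacloprid, and 6.23 and 7.87 after salicylic acid. It differed after imidacloprid by 1.62 (SE 0.76; limma adjusted p = 0.335).

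Of 16 genes for breakdown and transport, 4 were measured. The glucosinolate transporter genes GTR1 (AT3G47960) and GTR2 (AT5G62680) differed by -0.95 (SE 1.06) and 1.06 (SE 0.48; limma adjusted p = 0.320), and GTR1 was at 7.91 on one untreated array and 10.92 on the other. PYK10, a beta-glucosidase of endoplasmic reticulum bodies, differed by -1.50 (SE 1.82) and had its highest level, 9.09, on salicylic acid replicate 1. BGLU28 lay at 2.38 to 2.49, near background.

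APS3, an ATP sulfurylase gene and the only measured one of 14 for sulfur supply, lay at 7.93 and 10.14 untreated and 7.24 and 5.62 with imidacloprid, a difference of -2.60 (SE 0.93; limma adjusted p = 0.235). BCAT5, a relative of BCAT4 in branched-chain amino acid metabolism, lay at 7.998 and 7.44 untreated and 6.48 and 6.04 with imidacloprid, below all other arrays. It differed by -1.46 (SE 0.39; limma adjusted p = 0.156), with a smaller SE than that of BCAT4 (1.37). BCAT6 was near background at 2.27 to 2.70. After clothianidin and salicylic acid 0 of the 16 passed limma's test at an adjusted p, as did 0% of all probe sets. At an unadjusted p under 0.05 there were 0 after clothianidin, where 1.53% of all probe sets were lower and 1.11% higher. After salicylic acid there was 1, GTR2, higher by 1.35 (SE 0.48, limma adjusted p = 0.975), against 1.51% of all probe sets.

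**Figure D5:**
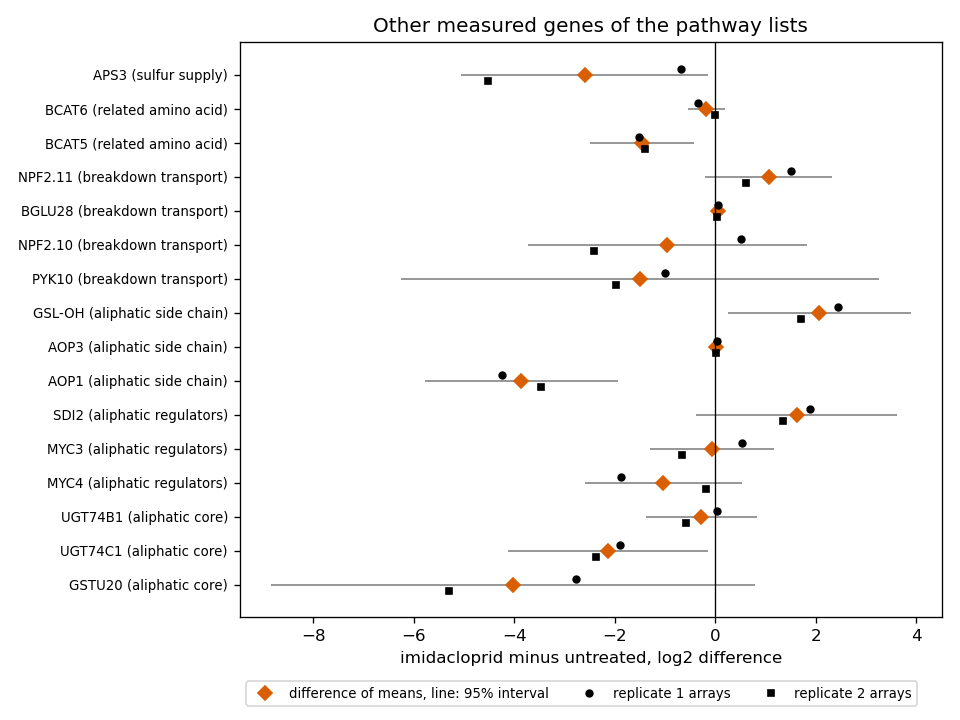
Imidacloprid minus untreated log2 difference of the 16 other measured pathway genes, as diamonds with 95% confidence intervals, with the differences of the replicate 1 and replicate 2 arrays as small circles and squares. GSTU20 at -4.03 and AOP1 at -3.86 are lowest and GSL-OH at 2.07 is highest; NPF2.10 and NPF2.11 are the transporters GTR1 and GTR2.

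Likeness to other genes on the array was measured as Pearson's r over the 8 arrays with the mean of the 5 scaled profiles, among 4308 probe sets named by 1 locus, above the mean 25th percentile and with an SD of at least 0.5. That mean was -2.18 on imidacloprid replicate 2 and between -0.47 and 0.99 on every other array. A high r thus rests largely on that 1 array, and r without it was not computed. Of the 4308 probe sets, 108 (2.51%) had r over 0.9. The 10 most alike were AT4G01897 (r = 0.99), AT1G20823, AT5G05090, AT1G21440, AT3G09470, AT5G18760, PRXR1, AT1G51090, AT1G54410 and AT1G56310 (r = 0.97). PRXR1, a class III peroxidase gene, lay at 13.94 and 13.87 untreated and 11.49 and 8.87 with imidacloprid, and AT1G21440 at 9.56 and 9.23 and then 7.31 and 4.98. These 10 differed from untreated by -3.73 to -1.15 after imidacloprid.

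The 5 most unlike were AT2G28320 (r = -0.99), Phox4, AT4G00590, AT5G43180 and AT3G12510 (r = -0.98), and Phox4 lay at 5.28 and 5.11 untreated and 6.74 and 8.42 with imidacloprid. By single gene, BCAT4 and MAM1 shared their closest 2, AT5G05090 (r = 0.99 and 0.98) and AT3G09470 (r = 0.98 for both). CYP79F1/F2 was nearest to AT1G51090 and AT4G38700 (r = 0.97 and 0.96), and CYP83A1 to AT4G01897 and AT1G20823 (r = 0.99 for both). MYB28 was nearest to AT1G35612 and AT5G49555 (r = 0.99 for both). No r is given a p here, since these genes were picked as the extremes of many.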

How the data were processed

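The authors deposited log2 expression summaries per probe set, and the submitters' processing notes name RMA and affy without versions; background and centring steps are not given in the sources used here. All 8 columns matched a sample. Of 22810 probe sets, 64 controls were left out. Genes were named through the platform table and the TAIR10.1 gene table (13436 probe sets with 1 locus); coordinates and sequences were not used.

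One limma 3.58.1 fit under R 4.3.3 took all 8 arrays, with a mean per group, lmFit and eBayes (4 residual degrees of freedom, prior 0.766), and Benjamini-Hochberg adjustment over 22746 probe sets. The fit was run on simulated data, where the check was only that planted falls came back near their size on average. How many of them the test would call is not given here. Correlations and figures were made in Python 3.11.15.

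The genes and lists were chosen with earlier results of these data known. The rule for named genes took all 5 genes, every measured gene of the aliphatic lists, up to 4 per other list, and the 10 most like and 5 most unlike profiles plus 2 per gene. Alternatives were median centring, repeated quantile normalization, an intensity trend, fits limited to the groups compared, the replicate block, a dim filter and each array left out. Array weights, and a fit without 2 arrays, were added after seeing the data. Replicates were separate experiments per the labels.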

Additional observations from a re-analysis of the deposited data

How the results depend on the processing

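No gene of the 5 passed an adjusted p under 0.05 in limma's test in any of the 6 comparisons or 17 settings (102 in all, lowest adjusted p 0.0815), and none of the 16 other pathway genes did after imidacloprid. The median differences with imidacloprid depended on which of its arrays was left out: leaving out each array in turn gave -5.18 to -1.50 against untreated leaves, 1.34 to 4.84 for clothianidin minus imidacloprid and -4.97 to -1.74 for imidacloprid minus salicylic acid. With each array left out in turn, the numbers at an unadjusted p under 0.05 ran from 0 to 5 in these 3 comparisons, and from 1 to 4 for the 16 other genes, of which median centring called 7 (SDI2 and GTR2 added to the 5). With only the arrays compared they were 1, 1 and 0, from fits with fewer arrays and the spread of the compared groups alone. For clothianidin against untreated leaves such a fit gave 1, CYP83A1, where all arrays gave 0. Its difference stayed at -0.41. The SD of CYP83A1 was 0.11 untreated and 0.09 after clothianidin, against 2.39 after imidacloprid and 1.25 after salicylic acid. What moved these counts was not tested. Array weights gave 1 for clothianidin minus imidacloprid. Without both arrays of highest actin difference (untreated and clothianidin replicate 2) the counts were 0, 0 and 0, and 3 for the other genes.

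Whether a replicate number marks a shared experiment is not stated in the labels. The replicate differences of 2 groups correlated across probe sets above 0.1 in 4 of 6 pairs of groups, with all values between -0.0020 and 0.52, so a pairing was neither established nor shown to be absent. The actin difference was higher on replicate 2 in all 4 groups. The same measure for GAPDH was higher on replicate 2 in the other groups but not with imidacloprid (0.37 on replicate 1 and 0.25 on replicate 2). With the replicate block the imidacloprid median stayed at -3.34, and 4 of the 5 genes were at an unadjusted p under 0.05, BCAT4 added, against 3 without the block. Of the 16 other genes the block called 6 in place of 5: GSTU20 and SDI2 were added and APS3 was lost.

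Some differences changed sign, and the cause was not tested. Not all of these were near 0 with all arrays. GTR1 after imidacloprid was -0.95, and CYP79F1/F2 for clothianidin minus salicylic acid was -0.76. MAM1 after clothianidin was 0.0565 with repeated quantile normalization; without the 2 arrays of highest actin difference it was 0.28, BCAT4 0.28, CYP79F1/F2 after salicylic acid 0.23 and MYB28 for clothianidin minus salicylic acid -0.34. After imidacloprid MYC3 was 0.00880 with median centring, AOP3 -0.0086 with repeated quantile normalization, and MYC3 and GTR1 0.33 and 0.55 without the 2 arrays. Leaving out single arrays gave ranges across 0 after clothianidin for BCAT4 (-0.60 to 0.091) and MAM1 (-0.26 to 0.22). After salicylic acid they were -0.73 to 1.21 for BCAT4, -0.31 to 0.90 for MAM1, -1.40 to 1.05 for CYP79F1/F2 and -1.04 to 0.73 for CYP83A1. For clothianidin minus salicylic acid they were -1.46 to 0.47 for BCAT4, -0.92 to 0.29 for MAM1, -1.99 to 0.46 for CYP79F1/F2, -1.14 to 0.63 for CYP83A1 and -0.75 to 1.12 for MYB28. After imidacloprid they were -0.36 to 0.011 for BCAT6, -0.46 to 0.33 for MYC3 and -2.46 to 0.55 for GTR1. All 5 genes kept a negative imidacloprid difference from untreated leaves under all 16 alternatives. Leaving out arrays could not change that sign, since both imidacloprid arrays lay below all others in each gene. Settings that alter only the estimate of the spread could not change it either. Where an array left a group with 1 sample, that sample was taken to vary like the other groups. Counts from such fits have no share of all probe sets beside them and are not read as results about these genes.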
